A study of Mus musculus with 6 samples.

Results

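The 34 genes described here encode proteins that sense unfolded protein in the endoplasmic reticulum (ER), fold it, or pass it on for degradation. They were chosen by gene symbol: 5 stress sensors and their transcription factors, 9 chaperones and cochaperones, 2 lectin chaperones, 8 enzymes of disulfide chemistry and 10 components of ER-associated degradation. All 34 were among the 18864 gene symbols of the deposited table, and all 34 were among the 13716 genes with enough reads to be tested. The study asked how inhibition of lysyl oxidase, the enzyme that cross-links collagen and elastin, affects the differentiation of satellite cells, which are stem cells of muscle.

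RNA sequencing covered 6 libraries, 3 of cells given BAPN (beta-aminopropionitrile, a lysyl oxidase inhibitor) and 3 of cells without it. All cells came from the gastrocnemius of mice whose strain the label spells C56Bl/6 and the series description C57Bl/6, with no genetic change named. They were enriched for myogenic cells by serial plating that leaves fibroblasts behind, and grown on 4% matrigel, a basement membrane extract. BAPN was present at 0.25% for 24 h in differentiation medium, and the controls had the same medium without it. The sources give the age as 8 weeks or 6 weeks and the serum as 4% horse serum or 10% fetal calf serum. In bulk RNA of such cultures, fewer cells of a type and less RNA per cell cannot be told apart.

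Libraries held between 17125602 and 18682099 counted reads. Libraries with the number 3 stood apart in both groups. Within a group, replicates 1 and 2 differed by 2.13 to 2.3 times the variance that counting alone gives, and replicate 3 differed from either by up to 22.4 times. Of 10 markers of muscle cells, all were in the table and 8 fell with BAPN, and their summed normalized count was 294258 to 374066 with BAPN against 612400 to 812191 in controls. The corresponding sums were 3038 to 3717 against 4758 to 6264 for 7 fibroblast markers, 347 to 509 against 217.5 to 318 for 7 macrophage markers and 3622 to 4053 against 5974.5 to 7609 for 5 markers of smooth muscle and pericytes. Most of the fibroblast sum was Col1a1 and Col3a1, which fell (mean 1431 against 2302 and 1661 against 2979). Pdgfra (67.8 against 42.9), Dcn (53.5 against 50.3) and Thy1 (110 against 142) were not called. The macrophage markers did not move together: Cd68 and Cd14 rose (mean 207 against 41.1 and 139 against 39.7), Itgam fell (53.2 against 114) and Mrc1 was not called. Sums of 6 endothelial markers were 255 to 295 against 212 to 258.5, those of 5 adipocyte markers 16.6 to 23.4 against 5.1 to 33.1, and those of 4 Schwann cell markers 41.0 to 50.7 against 39.8 to 48.8. The markers Ptprc, Adgre1 and Csf1r of macrophages, Lum and Pi16 of fibroblasts and Myh11 and Kcnj8 of smooth muscle had a mean normalized count under 10, and no marker in the table was at 0 in every library. The part of these shifts in the values below was not tested.

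Proteins that enter the ER are folded there by chaperones such as BiP and by enzymes that form disulfide bonds, and those that fail are pulled back into the cytosol and degraded. When unfolded protein builds up, the membrane sensors IRE1, PERK and ATF6 signal to the nucleus. IRE1 splices the Xbp1 transcript, ATF6 is cut to release a transcription factor, and PERK phosphorylates eIF2alpha, which slows translation and favours that of ATF4. In muscle the ER is continuous with the sarcoplasmic reticulum that stores calcium, and calreticulin is one of its calcium-binding proteins.

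Many genes of this response are known to carry the ER stress element in their promoter, the letters CCAAT and CCACG parted by 9 bases, which ATF6 binds. RefSeq (GRCm38.p6) gave a promoter, taken as 250 bases before to 50 after the start, for 30 of the 34 genes. Those without an entry were Atf6, Hyou1, Manf and Derl1. On either strand, the element was found in 10 of the 30, or 33.3%, against 37 of 27025 genes, or 0.137%. Since the element was defined in promoters of such genes, this share describes the group and is not an independent result. All 10 genes with the element had their highest BAPN value in replicate 3. So did 17 of the 20 with a promoter entry but no element, 31 of all 34, and 5811 of 13716 genes tested. Shown here are the elements of Hspa5, Hsp90b1, Dnajc3 and Pdia6, which were not called, and of Calr and Derl3, which fell with BAPN. Each is read 5′ to 3′ on the strand where it runs from CCAAT to CCACG, with the element in capitals.
Hspa5, chr2:34772020-34772049, plus strand: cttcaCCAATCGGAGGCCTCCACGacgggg
Hsp90b1, chr10:86705632-86705661, minus strand: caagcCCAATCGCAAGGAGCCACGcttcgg
Hsp90b1, chr10:86705528-86705557, plus strand: actcaCCAATCGTGCCTCACCACGcactct
Dnajc3, chr14:118937822-118937851, plus strand: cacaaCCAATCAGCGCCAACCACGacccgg
Pdia6, chr12:17266486-17266515, plus strand: agagaCCAATGAAAGGCGGCCACGgcgtgg
Calr, chr8:84847070-84847099, plus strand: atgggCCAATGAGGGTCGACCACGcgttgt
Derl3, chr10:75893236-75893265, minus strand: gctagCCAATGGGGAAGTCCCACGgtagag

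The other genes with the element were Canx, Creld2, Ero1lb and Syvn1. The shorter ERSE-II form, in which ATTGG and CCACG are parted by 1 base, was found in Dnajb11 and Herpud1, 2 of 30 or 6.67%, against 0.0444% of all genes. The XBP1 element searched as TGACGTGG was in 0 of the 30 and in 0.714% of all genes. The composite element of ATF4 and C/EBP, searched as TGATGNAA, was in 1 of the 30 or 3.33%, and in 4.51% of all genes. That match was in Herpud1, whose 250 bases before the start are shown with both of its elements in capitals, the composite element first and read on the opposite strand, because it was the gene among the 30 with matches to more than 1 of the elements searched.
Herpud1, chr8:94386179-94386428, plus strand: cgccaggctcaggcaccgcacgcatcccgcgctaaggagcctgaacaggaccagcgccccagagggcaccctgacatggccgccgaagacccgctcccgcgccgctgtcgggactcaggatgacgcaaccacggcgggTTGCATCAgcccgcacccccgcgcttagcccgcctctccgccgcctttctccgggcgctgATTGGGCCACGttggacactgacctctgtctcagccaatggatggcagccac

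With BAPN, 7 of the 34 genes changed and 27 were not called, against 36.4% of all genes tested that changed (edgeR's quasi-likelihood test, Benjamini-Hochberg adjusted p under 0.05 over all genes tested). The 5 that rose were the sensor genes Ern1 and Eif2ak3, the cochaperone gene Dnajb9, the oxidase gene Ero1l and the degradation gene Edem1. Calreticulin (Calr) and the derlin gene Derl3 fell, 2 genes in all. The 5 higher calls are 14.7% of the group, against 15.6% of all genes tested, and the 2 lower calls are 5.88%, against 20.8%. The median log2 fold change of the 34 was 0.093, against -0.032 for all genes. In replicate pairs 1 and 2 the median log2 ratio of the 34 was -0.051 and -0.027, and in pair 3 it was 0.28. In 7 of the 34 every BAPN library lay above every control library, against 22.4% of all genes. In 2 of the 34 every BAPN library lay below, against 28.5% of all genes, a lower share in the group.

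**Figure D1:**
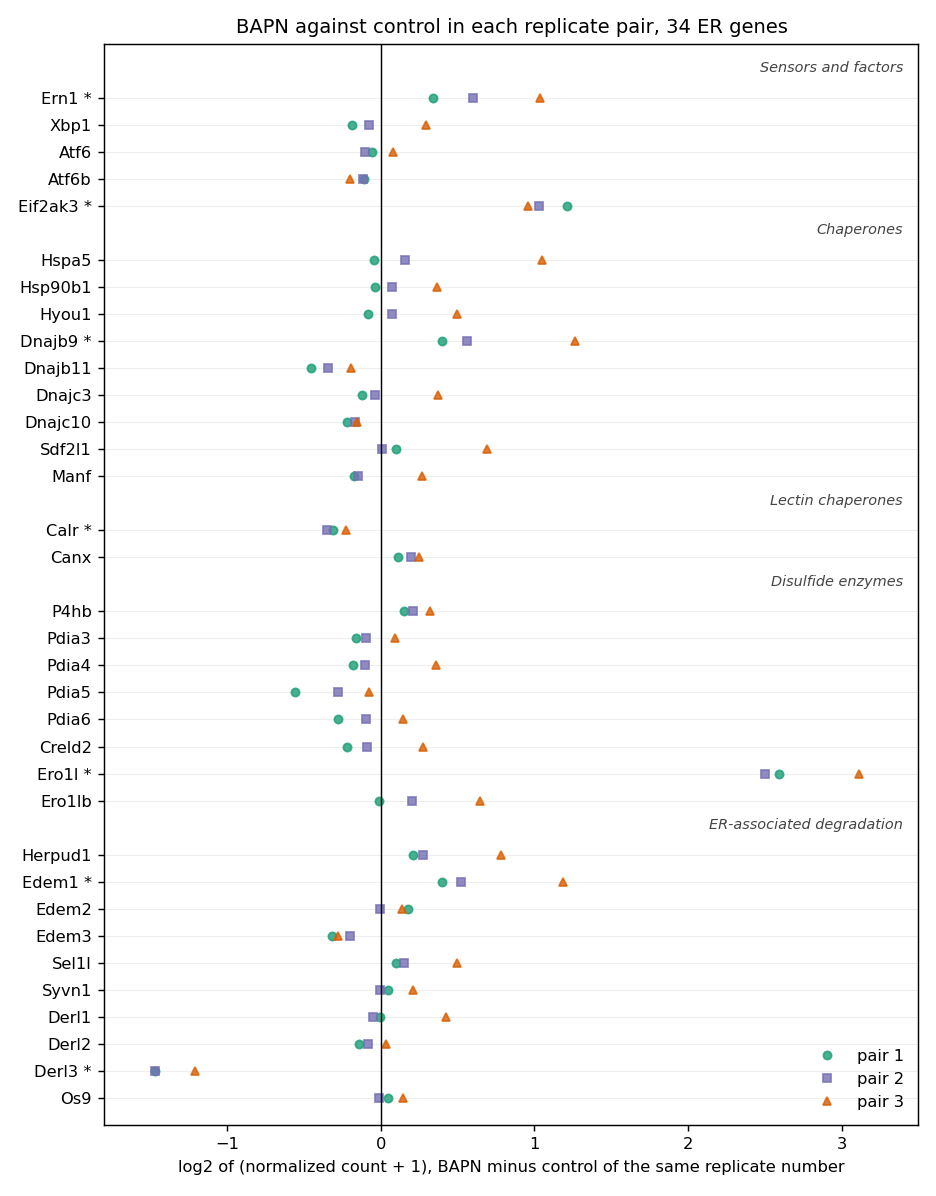
Log2 ratio of BAPN to control (normalized count + 1) in each replicate pair for the 34 genes, grouped by role, with an asterisk at the 7 genes called by edgeR. Circles, squares and triangles are pairs 1, 2 and 3. Ero1l stands at the far right and Derl3 at the far left in every pair, and in most other rows the triangle of pair 3 lies right of the other symbols.

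With replicate number as a block, 9 of the 34 rose and 5 fell, against 20.3% and 27.0% of all genes. Added to the higher calls were Herpud1, Canx, P4hb and Sel1l (edgeR test, adjusted p = 0.0066, 0.020, 0.0087 and 0.024 with the block), and to the lower calls Dnajb11, Dnajc10 and Edem3 (edgeR test, adjusted p = 0.0020, 0.019 and 0.0029 with the block). With replicates 1 and 2 of each group summed, since they lay close together, 3 rose (Ern1, Eif2ak3 and Ero1l) and 1 fell (Derl3), against 716 and 809 of all 13716 genes. Without BAPN replicate 3, 7 fell, as Dnajb11, Pdia5, Pdia6, Edem3 and Manf were added, against 3113 of all 13716 genes. When replicate 1 or 2 of either group was left out, 1 fell, as Calr was lost, against 1862 to 2206 of all genes. By the adjusted p-values in the authors' deposited table, 9 of the 34 were higher and 4 lower at the same threshold, against 11.8% and 15.8% of the genes with an adjusted p there. The 13 were the 7 genes named above with Canx, P4hb, Herpud1 and Sel1l higher and Dnajb11 and Edem3 lower, per the authors' deposited table.

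Among the sensors, the genes of the kinases IRE1 and PERK rose and those of the ATF6 pair did not pass. Ern1, which encodes IRE1 (chromosome 11, 106394650 to 106487852), had normalized counts of 557, 641 and 828 in BAPN replicates 1, 2 and 3 and of 441, 423 and 403.5 in the controls. Every BAPN library was above every control, and BAPN replicate 3 was the highest (log2 fold change 0.67, SE 0.14, n = 3 per group, edgeR test, adjusted p = 0.0081). Eif2ak3, which encodes PERK (chromosome 6, 70844515 to 70905245), had 575, 522.5 and 481 with BAPN and 248, 255 and 246.5 in controls. Here the groups were far apart, the controls nearly level, and BAPN replicate 3 was the lowest of its group, the opposite of most of the 34 (log2 fold change 1.08, SE 0.091, edgeR test, adjusted p = 2.6e-04). Reads of Eif2ak3 are uncertain in so far as its exons overlap Gm43292 on the other strand, since the strand setting of the counting is not given.

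The gene of the transcript that IRE1 splices was not called. Xbp1 had normalized counts of 1961, 2049.9 and 3283 with BAPN and 2234, 2164 and 2678 in controls. The groups overlapped: BAPN replicates 1 and 2 lay below every control and BAPN replicate 3 above (log2 fold change 0.043, SE 0.19, edgeR test, adjusted p = 0.88). Gene counts do not separate the spliced from the unspliced Xbp1 transcript, so these values say nothing of IRE1 activity. Atf6, the gene of the sensor that is cut in the Golgi, had 5799.6, 5775 and 6880.5 with BAPN and 6028.5, 6207 and 6508 in controls, with groups that overlapped (log2 fold change -0.022, edgeR test, adjusted p = 0.86). Its relative Atf6b had 1064, 971 and 1054 with BAPN and 1149, 1052 and 1211.5 in controls. Those groups overlapped by a narrow margin, and the log2 fold change was -0.14 (SE 0.074, edgeR test, adjusted p = 0.17).

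Of the 9 chaperones and cochaperones, 1 rose (11.1%), 0 fell and 8 were not called, against 15.6% higher and 20.8% lower of all genes tested. Their medians in pairs 1, 2 and 3 were -0.085, 0.0076 and 0.37 on the log2 scale. Hspa5 encodes BiP, the ER member of the HSP70 family and the usual gauge of unfolded protein in this compartment (chromosome 2, 34771970 to 34777547). Its normalized counts were 17886, 18809 and 40437 with BAPN, against 18464.5, 16882 and 19528 in controls. BAPN replicates 1 and 2 lay within the control range, and BAPN replicate 3 was 2.20-fold above their mean, so that the log2 fold change of 0.49 (SE 0.29, edgeR test, adjusted p = 0.22) became 0.0044 without that library (edgeR test, adjusted p = 0.97). Hsp90b1, the gene of the ER member of the HSP90 family, had 16776, 17662.5 and 24158 with BAPN and 17253, 16783 and 18733.5 in controls. It showed the same order with a smaller step, and its groups overlapped (log2 fold change 0.15, SE 0.14, edgeR test, adjusted p = 0.42). Exons of Hsp90b1 overlap Gm15344 and Gm25745 on its own strand and 1810014B01Rik on the other, so its reads are uncertain.

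Dnajb9 was the cochaperone gene that rose. It encodes ERdj4, a J-domain partner of BiP (chromosome 12, 44205559 to 44210326), and its exons overlap Mir5627 on the other strand. Normalized counts were 1055, 1089 and 2129 with BAPN, against 799.8, 738 and 884 in controls. All BAPN libraries were above all controls, and BAPN replicate 3 was 1.99-fold above the mean of its fellows (log2 fold change 0.82, SE 0.26, edgeR test, adjusted p = 0.040). Without BAPN replicate 3 the log2 fold change was 0.41 (edgeR test, adjusted p = 0.0081). The call was lost without control replicate 1, 2 or 3 (edgeR test, adjusted p = 0.11, 0.11 and 0.065) and with replicates 1 and 2 summed (edgeR test, adjusted p = 0.10), and the adjusted p ran from 2.4e-07 to 0.11 over 15 alternatives.

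The other J-domain genes went their own ways. Dnajb11 (ERdj3) had a log2 fold change of -0.32 (edgeR test, adjusted p = 0.080) with pair values of -0.45, -0.34 and -0.20, and Dnajc10 (ERdj5), a disulfide reductase, one of -0.18 (edgeR test, adjusted p = 0.10) with -0.22, -0.17 and -0.15. Both were negative in all 3 pairs. Dnajc3 (p58IPK), also known as an inhibitor of PERK, had a log2 fold change of 0.097 and was 1.52-fold higher in BAPN replicate 3 than in its fellows. Sdf2l1, a partner of ERdj3, had normalized counts of 597, 590.5 and 1172 with BAPN and 557, 587 and 727 in controls (log2 fold change 0.33 with an SE of 0.26, edgeR test, adjusted p = 0.36). Hyou1, a nucleotide exchange factor of BiP, and Manf, a secreted ER protein that binds BiP, had log2 fold changes of 0.20 and 0.0076, and both were higher in BAPN replicate 3, by 1.61-fold and 1.52-fold. Without BAPN replicate 3, Manf was called lower (log2 fold change -0.22, edgeR test, adjusted p = 0.043). Exons of Manf overlap Rbm15b on the same strand and 4930524O07Rik on the other.

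**Figure D2:**
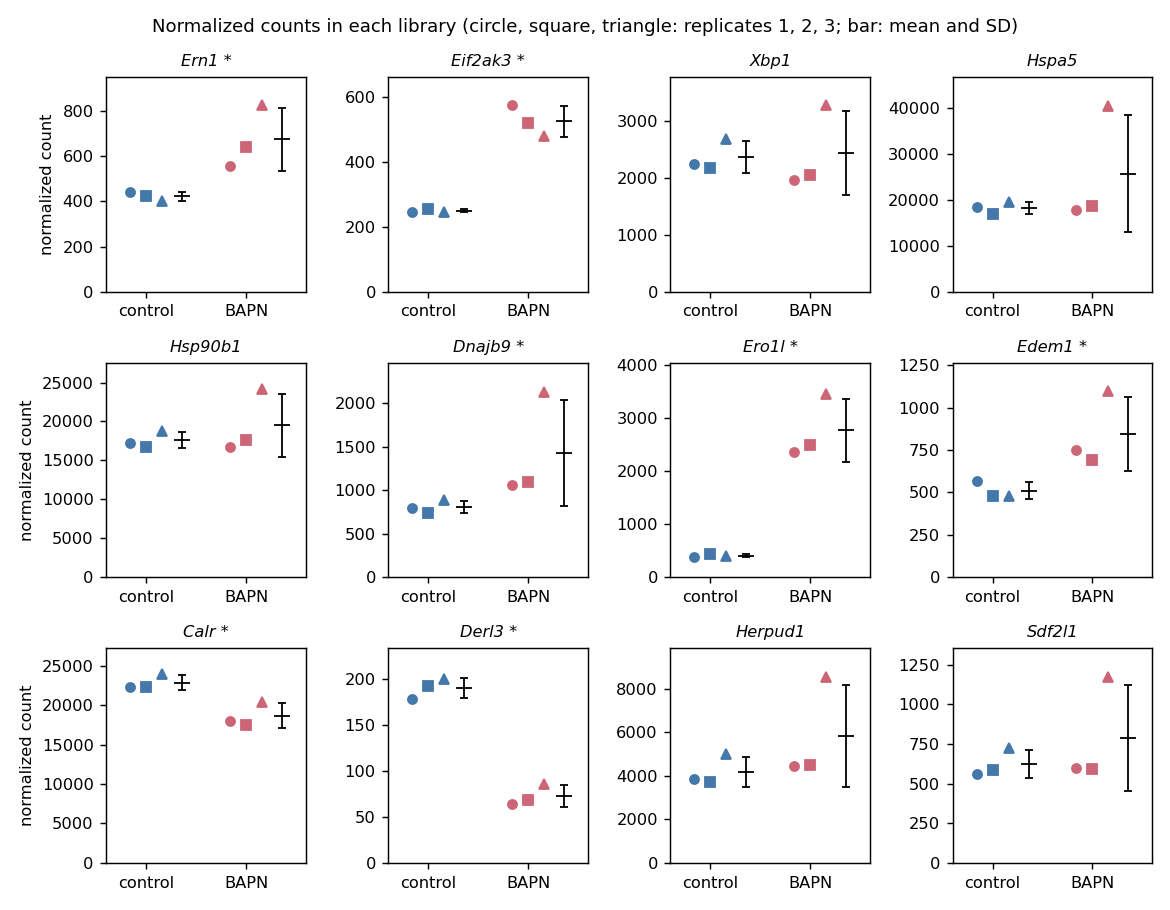
Normalized counts of 12 of the genes in each library, controls in blue and BAPN in red, with circle, square and triangle for replicates 1, 2 and 3 and a bar for the mean and SD (n = 3). An asterisk marks a gene called by edgeR. Ern1, Eif2ak3, Dnajb9, Ero1l, Edem1, Calr and Derl3 show groups that do not overlap, whereas for Xbp1, Hspa5, Hsp90b1, Herpud1 and Sdf2l1 the triangle of BAPN replicate 3 stands above overlapping values.

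Of the 2 lectin chaperones, 1 fell and 1 was not called, where 20.8% of all genes tested fell. Calr encodes calreticulin, the soluble lectin and calcium buffer (chromosome 8, 84841850 to 84846934), and had normalized counts of 17953, 17542 and 20454 with BAPN and 22323, 22345 and 23966 in controls. All BAPN libraries lay below all controls, and replicate 3 was the highest of each group (log2 fold change -0.29, SE 0.080, edgeR test, adjusted p = 0.023). This call was lost without BAPN replicate 1 or 2 or control replicate 1 or 2 (edgeR test, adjusted p = 0.088, 0.10, 0.060 and 0.057) and with replicates 1 and 2 summed (0.20), and the adjusted p ran from 1.2e-07 to 0.20 over 15 alternatives. Canx encodes calnexin, the membrane-bound lectin. Its normalized counts were 16923, 17160.5 and 18208 with BAPN, against 15652.5, 14999.8 and 15319 in controls, so that the groups did not overlap, but it missed the threshold (log2 fold change 0.19, SE 0.063, edgeR test, adjusted p = 0.051). Counted per kb of exon, Calr had the highest control level of the 34, with a mean normalized count of 10475 per kb, and Canx was at 3576 per kb.

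Of the 8 genes of disulfide chemistry 1 rose (12.5%, against 15.6% of all genes tested), and it was the gene with the largest fold change of the 34. Ero1l, named Ero1a in RefSeq, encodes ERO1 alpha, the oxidase that returns electrons from protein disulfide isomerase to oxygen (chromosome 14, 45283087 to 45318771). Its normalized counts were 2375, 2497 and 3464 with BAPN, against 392, 440.1 and 399 in controls. The groups were far apart in every pair, and BAPN replicate 3 was again the highest (6.76-fold, log2 fold change 2.76, SE 0.15, edgeR test, adjusted p = 7.1e-05). Per kb of exon, Ero1l went from rank 30 of the 34 in controls, at 92.9 normalized counts per kb, to rank 20 with BAPN, at 629 per kb. The related Ero1lb, an oxidase gene known from insulin-secreting cells, had 104.0, 104.3 and 187.6 with BAPN and 104.9, 90.5 and 119.4 in controls, with groups that overlapped (log2 fold change 0.33, SE 0.25, edgeR test, adjusted p = 0.34).

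None of the isomerases that ERO1 oxidizes passed the test. P4hb, the founding isomerase and a subunit of collagen prolyl 4-hydroxylase, came closest, with 13686, 14288 and 16216 normalized counts with BAPN and 12314, 12343 and 12988 in controls. Its groups did not overlap (log2 fold change 0.23, SE 0.079, edgeR test, adjusted p = 0.052), and like Canx it was called with TMM scaling, median-ratio scaling, a minimum mean count of 50, DESeq2 and the replicate block. Pdia3, which works with the lectin chaperones, Pdia4, Pdia5 and Pdia6 had log2 fold changes of -0.052, 0.045, -0.29 and -0.056, with edgeR test, adjusted p between 0.17 and 0.82. Creld2, which has isomerase activity, had 0.0011 (edgeR test, adjusted p = 0.995). Exons of Pdia3, Pdia4 and Pdia6 overlap Catsper2, Mir704 and Atp6v1c2, of which only Mir704 is on the same strand.

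Among the 10 degradation genes 1 rose and 1 fell, 10.0% each, against 15.6% and 20.8% of all genes tested. Edem1, which directs misfolded glycoproteins to degradation through the trimming of their mannose (chromosome 6, 108828641 to 108859356), had normalized counts of 748, 689 and 1097 with BAPN and 568.5, 479.7 and 482 in controls. The groups did not overlap (log2 fold change 0.73, SE 0.17, edgeR test, adjusted p = 0.014), and the call was lost with replicates 1 and 2 summed (edgeR test, adjusted p = 0.056). Without BAPN replicate 3 the log2 fold change was 0.49 (edgeR test, adjusted p = 0.0066). Its relatives Edem2 and Edem3 had log2 fold changes of 0.10 and -0.27 (edgeR test, adjusted p = 0.33 and 0.13).

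Derl3 encodes a derlin, a family of membrane proteins of the channel through which proteins leave the ER (chromosome 10, 75893413 to 75895941). It had normalized counts of 63.7, 68.9 and 86.0 with BAPN and 178, 193 and 200.1 in controls, a 2.62-fold lower level (log2 fold change -1.39, SE 0.14, edgeR test, adjusted p = 5.1e-04). Every BAPN library was below every control. The more abundant Derl1 and Derl2 had log2 fold changes of 0.15 and -0.060 (edgeR test, adjusted p = 0.48 and 0.67). Per kb of exon, Derl3 had a control mean of 144 normalized counts per kb against 720.0 for Derl1 and 225 for Derl2.

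The ligase complex that Herpud1 organizes did not pass. Herpud1 had normalized counts of 4471, 4481 and 8549.8 with BAPN and 3873, 3708.5 and 4983 in controls, replicate 3 being the highest in both groups (log2 fold change 0.48, SE 0.25, edgeR test, adjusted p = 0.18). Its adaptor Sel1l and its ligase Syvn1 had log2 fold changes of 0.27 and 0.090 (edgeR test, adjusted p = 0.18 and 0.48), and the lectin Os9, which hands them glycoproteins, had 0.059 (edgeR test, adjusted p = 0.46). Exons of Syvn1 and Derl2 overlap Mrpl49 and Mis12 on the other strand.

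A second pattern ran through the group and was largest in BAPN replicate 3, with a smaller shift in control replicate 3. BAPN replicate 3 was the highest BAPN library for 31 of the 34 genes, against 5811 of 13716 genes tested, and control replicate 3 was the highest control for 23 of 34, against 5581 of 13716. BAPN replicate 3 exceeded the mean of BAPN replicates 1 and 2 by over 1.2-fold, a limit chosen after the values were seen, in 24 of the 34 (70.6%), against 16.2% of all genes. In controls, replicate 3 did so in 5 of the 34 (14.7%), against 16.5%. The median log2 ratio of replicate 3 to its fellows was 0.46 for the 34 genes in the BAPN group, against 0.0025 for all genes, and 0.11 in controls, against -0.00020. With 1 library of this number in each group there is no test of this difference.

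Hspa5 had the largest step in BAPN replicate 3 among the 34 (2.20-fold). After it came Dnajb9 (1.99-fold), Sdf2l1 (1.97-fold), Herpud1 (1.91-fold), Ero1lb (1.79-fold), Xbp1 (1.64-fold) and Hyou1 (1.61-fold). By role, the limit was passed by 8 of 9 chaperones and cochaperones, 8 of 10 degradation genes, 6 of 8 disulfide genes, 2 of 5 sensor genes and 0 of 2 lectin chaperones. The 10 genes below it were Atf6, Atf6b, Eif2ak3, Dnajc10, Calr, Canx, P4hb, Pdia3, Edem2 and Os9, with Eif2ak3 (0.876-fold) and Dnajc10 (0.898-fold) under 1. Just inside the limit were Syvn1 and Derl2, both at 1.23-fold, and just outside was Atf6 at 1.19-fold. Summed muscle markers were also highest in BAPN replicate 3 (374066) and in control replicate 3 (812191). By gene, 7 of the 10 were highest of the BAPN group in replicate 3, and Pax7 and Myod1 were lowest there. A low RNA integrity number was recorded for 2 samples that the labels do not identify. The part of the muscle markers and of RNA integrity in the pattern was not tested.

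**Figure D3:**
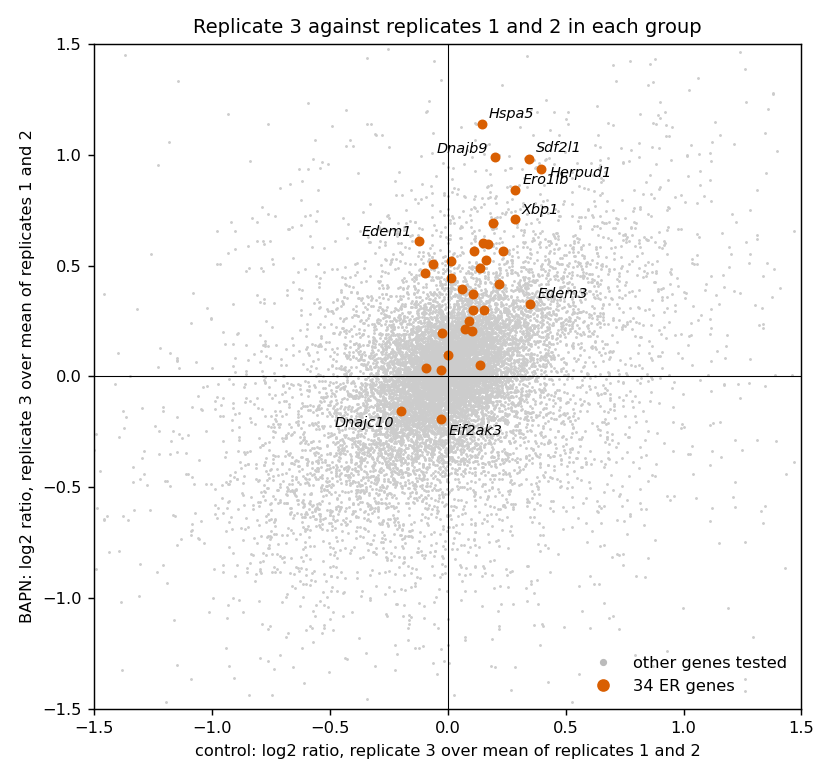
Log2 ratio of replicate 3 to the mean of replicates 1 and 2 (normalized count + 1) in controls, across, and with BAPN, upward, for the 34 genes (orange) and the other genes tested (grey). The axes end at 1.5, and 97 genes outside are not drawn. Hspa5, Dnajb9, Sdf2l1 and Herpud1 lie highest on the vertical axis, Herpud1 (0.39) and Sdf2l1 (0.35) also lie to the right on the horizontal one, and Eif2ak3 and Dnajc10 lie below 0.

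The fold changes of genes with the ER stress element had nearly the same median as those of genes without it. Of the 10 with it, 0 rose and 2 fell (Calr and Derl3), with a median log2 fold change of 0.093, and of the 20 that had a promoter entry without the element 5 rose and 0 fell, with a median of 0.080. The step in BAPN replicate 3 passed 1.2-fold in 8 of 10 with the element and 13 of 20 without it, against 16.2% of all genes. The median log2 ratios were 0.47 and 0.41. The elements printed above for Hspa5 and Derl3 belong to a gene that was not called and to one that fell in every pair. Both genes were highest of the BAPN group in replicate 3, by 2.20-fold and 1.29-fold. Of 27 other genes with the element 9 were tested, 1 rose (11.1%) and 3 fell (33.3%), against the same 15.6% and 20.8% of all genes. Their median log2 fold change was -0.13 and their median log2 ratio in BAPN replicate 3 was 0.090.

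A list of genes named as effectors of PERK and ATF4 rose almost as a whole. The list was chosen with earlier results of these data known, so the share that rose describes it and is not an independent result. RNA levels do not measure PERK activity, and what raised these genes was not tested. Of the 20 genes on the list, which also holds Eif2s1 and Ern2, 19 were tested, 18 rose and 0 fell. The median log2 fold change was 1.09, with pair medians of 0.97, 1.03 and 1.38. Background over all genes was 15.6% higher. The smallest p-values were those of Ddit4, an inhibitor of mTORC1 (log2 fold change 0.93, edgeR test, adjusted p = 1.4e-04), Bcl2l11, which encodes the pro-apoptotic protein BIM (1.08, adjusted p = 1.4e-04), and Vldlr, a lipoprotein receptor (3.06, adjusted p = 2.0e-04). Eif2s1, the gene of eIF2alpha itself, did not pass (-0.17, adjusted p = 0.064), and Ern2 was not in the table. With replicates 1 and 2 summed, 14 rose. Set beside the 34 genes, the list had a higher median in each pair, and replicate 3 exceeded its BAPN fellows by over 1.2-fold in 15 of 19. Control replicate 3 exceeded its own fellows in 7 of 19 (36.8%), against 16.5% of all genes and 14.7% of the 34.

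The counts of 4 further lists of ER machinery are read against 15.6% of all genes higher and 20.8% lower. Of 26 genes of the translocon and of glycosylation, 1 rose (3.85%) and 3 fell (11.5%), both shares below those of all genes, with a median log2 fold change of -0.051. The one that rose was Sec61a1, the channel subunit (0.39, edgeR test, adjusted p = 0.038), and those that fell were Spcs1 of the signal peptidase (-0.32, 0.0036) and Dad1 and Rpn2 of the oligosaccharyltransferase (-0.24 and -0.17, 0.013 and 0.043). Of 30 further folding genes, 1 rose (3.33%) and 8 fell (26.7%), the latter near the share of all genes, with a median of -0.082. The smallest p-values were those of Qsox1, a sulfhydryl oxidase (-0.71, 3.9e-04), Fkbp10, a prolyl isomerase that acts on collagen (-0.81, 0.0030), and Tmx4, a thioredoxin-related membrane protein (-0.49, 0.0051). Txndc11 rose (0.32, 0.031). Beyond the rule for naming, the collagen chaperone Serpinh1 also fell (-0.34, 0.020), named after its value was seen.

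Of 24 further degradation genes, 4 rose (16.7%) and 9 fell (37.5%), with a median log2 fold change of -0.15, and the share that rose was that of all genes. The smallest p-values were those of Selenok, a selenoprotein bound to derlins (0.44, edgeR test, adjusted p = 0.0022), Aup1 (-0.30, 0.0046) and Fam8a1 (-0.31, 0.0071), which both bind the Syvn1 complex. The others that rose, Faf2, Rnf185 and the lectin Erlec1, had log2 fold changes of 0.24, 0.23 and 0.22 (edgeR test, adjusted p = 0.021, 0.040 and 0.036). Of 25 genes of export from the ER and retrieval to it, 3 rose and 3 fell, both below the shares of all genes, with a median of -0.061. The retrieval receptors Kdelr3 and Kdelr2 and the coat gene Sec24b rose (0.35, 0.24 and 0.31, edgeR test, adjusted p = 0.014, 0.045 and 0.035), and Sec13, Tmed9 and Sec31b fell (-0.29, -0.31 and -1.01, edgeR test, adjusted p = 0.0056, 0.022 and 0.048). With replicates 1 and 2 summed, these 4 lists together had 1 higher and 2 lower calls. The number that fell was 9 translocon genes and 6 export genes without BAPN replicate 3, against 1 translocon gene without BAPN replicate 2 or control replicate 2. It was 4 degradation genes and 1 export gene without replicate 1 of either group or replicate 2 of the BAPN group, and 5 folding genes without BAPN replicate 2 or control replicate 1. Replicate 3 exceeded its BAPN fellows by over 1.2-fold in 12 of 26 translocon genes, 5 of 30 folding genes, 5 of 24 degradation genes and 8 of 25 export genes, against 16.2% of all genes, so that the folding and degradation lists were near that share. In controls it did so in 0, 0, 1 and 2 of them, against 16.5% of all genes.

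**Figure D4:**
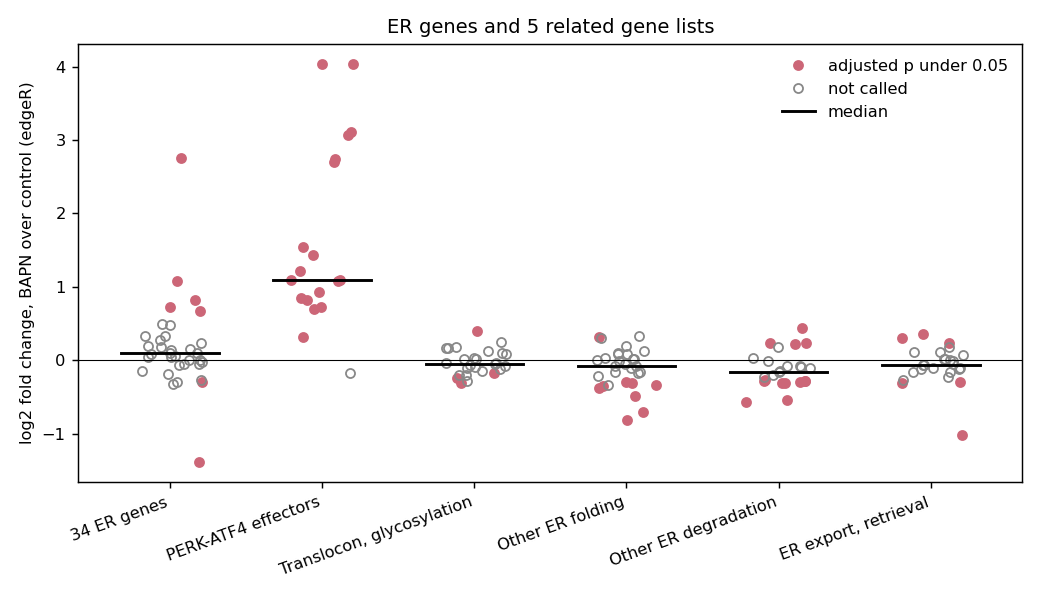
Log2 fold change of BAPN over control for the 34 genes and for 5 related lists, each point a gene, filled where edgeR's adjusted p was under 0.05, with a line at the median. The PERK and ATF4 effectors centre at 1.09, the 34 genes at 0.093, and the other 4 lists between -0.15 and -0.051. All were chosen with earlier results of these data known.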

How the data were processed

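RNA sequencing of 6 mouse satellite cell libraries was compared, 3 with BAPN and 3 without, grouped by the labels' treatment entries. Per the submitters' processing notes, the tools were STAR, HTSeq, DESeq2 and cutadapt on the GRCm38 (mm10) build. Their versions, the annotation and the strand of counting are not stated in these sources, and per the labels the reads were single and of 60 nt. The authors deposited raw read counts per gene symbol, per the file headers, with 0 rows that name no gene. The authors also deposited normalized counts, a signal that equals the count divided by 1 size factor per library, and their own comparison with log2 and linear fold changes and raw and adjusted p-values per gene.

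Genes whose normalized count averaged 10 or more were tested on the raw counts in edgeR 4.0.16 (R 4.3.3; glmQLFit and glmQLFTest) with the authors' size factors, and p-values were adjusted over all 13716 genes. Scripts were tested on simulated data. The members and lists were chosen with earlier results of these data known. Per-library values were given for the 5 sensor genes, Hspa5, Hsp90b1 and every called gene, and a few others were named after their values were seen. From each list the 3 genes with the smallest p were named, with all called ones where 5 or fewer moved one way. Replicate numbers are shared between groups in the titles, and the series description calls the replicates independent without saying what a number marks. Across genes, the departures of libraries 1, 2 and 3 from the mean of their group correlated between groups at 0.184, 0.191 and 0.366, respectively. The submitters' model is not given, so the main fit had no block for replicate number, and the block was an alternative. BAPN library 1 correlated more with control library 2 (0.229) and BAPN library 2 with control library 1 at 0.105, so the values set number 3 apart and do not tell pair 1 from pair 2. Alternatives were TMM or median-ratio scaling, no filter or a mean of 50, DESeq2 1.42.0, limma-trend (limma 3.58.1, log2 of the deposited normalized count + 1), the block, each library left out, replicates 1 and 2 summed, and both libraries of number 3 left out. All p-values rest on at most 3 libraries a group, and on fewer where libraries were left out or summed. Positions and exon lengths are from GENCODE M21 (GRCm38) and promoters from RefSeq, whose starts can differ. A planned description of proteins that end in an ER retrieval signal was not run. Levels are per gene symbol, so reads of near copies could not be separated.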

Additional observations from a re-analysis of the deposited data

How the results depend on the processing

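Ern1, Eif2ak3, Ero1l and Derl3 were called in the same direction in 15 of 15 alternatives, Edem1 in 14, Dnajb9 in 11 and Calr in 10. With the replicate block 9 of the 34 genes rose and 5 fell, with replicates 1 and 2 summed 3 rose and 1 fell, and with both libraries of number 3 left out 9 rose and 12 fell with a median log2 fold change of -0.019. With single libraries left out, 4 to 5 rose and 1 to 7 fell, with a median of -0.072 to 0.16, the negative value coming without BAPN replicate 3. For all genes, 716 rose and 809 fell with replicates 1 and 2 summed, and 3223 and 4265 with number 3 left out, against 2140 and 2850. With single libraries left out, 1461 to 2329 of all genes rose and 1862 to 3113 fell. The cause of these changes was not tested.

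Of the lists, translocon genes gave 3 higher and 6 lower with the block, folding genes 3 higher with the block, TMM or median-ratio scaling, and the PERK effectors 1 lower with the block. Without a filter 2 of the degradation list rose. With replicates 1 and 2 summed, translocon and export genes gave 0 higher and 0 lower, folding genes 0 and 2, and degradation genes 1 and 0. With number 3 left out, translocon genes gave 3 and 12, folding genes 3 higher, degradation genes 15 lower, export genes 5 and 11 and PERK effectors 1 lower. With single libraries left out, 0 to 1 translocon genes rose and 1 to 9 fell, 0 to 2 folding genes rose and 5 to 10 fell, 1 to 4 degradation genes rose and 4 to 13 fell, 0 to 3 export genes rose and 1 to 6 fell, and 15 to 18 PERK effectors rose and 0 to 1 fell.

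Some log2 fold changes that were not called reversed. Atf6 was at 0.023 with TMM, 0.011 with median-ratio scaling and 0.0045 with replicates summed, and Pdia6 at 0.00086 with the last. Manf was at -0.019 in limma-trend and -0.018 with the block, and Creld2 at -0.013 and -0.012. With number 3 left out, Xbp1 was at -0.13, Hyou1 at -0.0069, Dnajc3 at -0.081, Manf at -0.16, Pdia4 at -0.14, Creld2 at -0.16 and Derl1 at -0.030, and of these Xbp1, Manf, Pdia4 and Creld2 were called lower (edgeR test, adjusted p = 0.018, 0.0024, 0.0056 and 0.017). With single libraries left out, the log2 fold change ran from -0.11 to 0.021 for Atf6, -0.27 to 0.056 for Pdia6, -0.17 to 0.010 for Derl2, -0.23 to 0.18 for Xbp1, -0.031 to 0.25 for Hsp90b1, -0.073 to 0.32 for Hyou1, -0.13 to 0.21 for Dnajc3, -0.071 to 0.50 for Sdf2l1, -0.22 to 0.11 for Manf, -0.15 to 0.14 for Pdia4, -0.16 to 0.081 for Creld2, -0.0085 to 0.47 for Ero1lb, -0.016 to 0.15 for Syvn1 and -0.068 to 0.24 for Derl1.

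Limits: with 3 libraries a group of which replicates 1 and 2 lie close together, small shifts such as those of Canx and P4hb depend on the test, and a gene that missed the threshold was not shown to be level. Counting error is small for all but the shallowest genes: Derl3, Ero1lb and Pdia5 had at most 200.1 normalized counts in any library.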
